A study of Homo sapiens with 9 samples.

Results

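The 56 genes described here encode proteins of the cytosolic ribosome. They were chosen by symbol alone: RPL or RPS followed by a number with at most 1 of the letters A, X or L, together with the stalk genes named RPLP and the gene RPSA, where a probe set was annotated to that 1 symbol. They are 35 genes of the large subunit and 21 of the small subunit, out of 19775 genes with a probe set of their own on the array. Each gene stands for its probe set of highest mean signal over the 9 arrays. No probe set carried only the symbol of RPLP0, RPSA, RPS27A, RPL5 or RPL23, so these genes are not among the 56, and 64 more probe sets that list a ribosomal protein gene beside another gene were left unnamed.

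The arrays measured total RNA of HEK293 cells, an established line from human embryonic kidney that grows as an adherent culture. The wild type group was left untreated, the overexpression group received by transfection a plasmid that encodes human MOF, and the knockdown group was transfected with small interfering RNA against MOF, with 3 arrays in each group. MOF is the product of KAT8 and acetylates lysine 16 of histone H4, and the labels call both transfected groups mutant HEK293 although the design text describes transient reagents. The labels give neither the promoter of the plasmid, nor the sequence of the interfering RNA, nor the time after transfection. Because wild type cells were untreated, a difference from them joins any effect of transfection to that of MOF. The design text also mentions control samples that received dsRNA against EGFP, but no array is labelled so, and the wild type arrays are labelled untreated. Which reference the authors used is unclear. The labels do not say that replicates were separate cultures, so the p-values rest on the spread between these arrays, part or all of which may be technical.

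A ribosome joins a small subunit, which reads the messenger RNA, to a large subunit, which forms the peptide bond, and each ribosomal protein is needed in about equal amount. In growing cells the messenger RNAs of these proteins are among the most abundant of all. Most of them begin with a C followed by an unbroken run of pyrimidines, the terminal oligopyrimidine or TOP tract, through which their translation is held back by LARP1 and released by the growth kinase mTOR. A few ribosomal proteins have a second, related gene, a paralog, whose expression is often restricted to certain tissues or states. Several free ribosomal proteins, among them RPL5 and RPL11, bind MDM2, the ligase that marks p53 for destruction.

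The first bases of the genes show which of them have a pyrimidine run across the annotated start, a looser match than the TOP tract. The lines give 10 bases before and 20 bases from the RefSeq start of transcription (GRCh38.p14), on the strand of the gene, with the pyrimidine run that spans the start in capitals. They are shown for the paralogs and their parent genes and for genes whose signals are described further on, where RefSeq has an entry. Of the 3 starts of RPL32, none with a run, that of lowest coordinate is given. As the gene lies on the minus strand, it is the most downstream of them.
RPS27, chr1:153990752-153990781, plus strand: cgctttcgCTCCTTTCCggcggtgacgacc
RPS27L, chr15:63157458-63157487, minus strand: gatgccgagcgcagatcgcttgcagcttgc
RPL39, chrX:119791611-119791640, minus strand: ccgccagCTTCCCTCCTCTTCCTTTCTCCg
RPL10L, chr14:46651762-46651791, minus strand: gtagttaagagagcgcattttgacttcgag
RPL22, chr1:6199576-6199605, minus strand: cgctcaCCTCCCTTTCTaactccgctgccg
RPL22L1, chr3:170870176-170870205, minus strand: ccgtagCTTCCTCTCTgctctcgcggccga
RPS7, chr2:3575250-3575279, plus strand: cgCCCTCCTCCTCgcgctgtttccgcctct
RPS18, chr6:33272065-33272094, plus strand: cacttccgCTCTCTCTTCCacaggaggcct
RPL24, chr3:101686699-101686728, minus strand: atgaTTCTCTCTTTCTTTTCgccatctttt
RPL36, chr19:5690285-5690314, plus strand: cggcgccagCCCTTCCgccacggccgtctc
RPL32, chr3:12840431-12840460, minus strand: ggtgacccttgacctcctgggatcgcatct
RPL14, chr3:40457329-40457358, plus strand: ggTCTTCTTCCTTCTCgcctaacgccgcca
RPL31, chr2:101002279-101002308, plus strand: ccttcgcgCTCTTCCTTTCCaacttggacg
RPS19, chr19:41860245-41860274, plus strand: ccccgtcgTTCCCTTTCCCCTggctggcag
RPS6, chr9:19380217-19380246, minus strand: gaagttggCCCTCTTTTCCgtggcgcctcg

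An unbroken run of at least 5 bases that are C or T and include the start base, searched on the strand of the gene only, was present in 37 of the 48 ribosomal protein genes with a promoter entry (77.1%), with a median length of 11 bases. Among the other tested genes it was present in 1150 of 9841 (11.7%), and among all genes with an entry in 3258 of 27305 (11.9%). RPS27L, RPL10L and RPL32 had a purine at the start base and so no run, whereas RPS27 and RPL39 had one. RPL22L1 held a run, as RPL22 did. The match depends on the exact base that RefSeq gives as the start. A run may begin before that base, so a match does not show that the messenger RNA begins with a TOP tract. Of the 11 bases of the RPS7 run, 3 lie from the start on. RPL23A, RPL30, RPL37, RPL39L, RPL3L, RPL7, RPL8 and RPS15A had no entry.

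The ribosomal protein genes took the top of the signal range. Of the 56 genes, 55 were tested, which means that their mean log2 signal was at or above that of the median probe set (signal 188). RPL3L, a paralog known from muscle, had signals of 8.0 to 83.2 and was not. The brightest hundredth of the 27307 tested probe sets began at a signal of 65382 and held 274 probe sets, of which 111 (40.5%) list a ribosomal protein gene. It held 49 of the 55 tested genes, whose mean signals ran from 68040 to 156856. On 7 of the 9 arrays the brightest of all probe sets was one of the 49. The 6 tested genes below that range were RPS27L, RPL39L, RPL27A, RPL10L, RPLP2 and RPL36A. Of the 56 probe sets 42 carry the suffix of probes that also match other transcripts, and ribosomal protein genes have many processed pseudogenes, so those signals can hold RNA of related copies. The array gives no per-length level, and genes are compared with themselves across groups only.

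Several facts of the whole set of arrays touch these genes. Every array had been scaled to the same trimmed mean of 1500.2, a mean that leaves out the brightest and dimmest probe sets of each array. The values are relative to that mean and not to the total signal. The bright end was not made equal, and the highest signal of an array ran from 136325 (knockdown replicate 3) to 181682 (wild type replicate 3). In RNA from bulk cultures fewer cells of a kind and less RNA per cell cannot be told apart. KAT8 had signals of 2910, 3797 and 3249 in wild type, 4594, 4727 and 4763 after overexpression and 432.0, 705.8 and 517.1 after knockdown (log2 difference of knockdown from wild type -2.61, SE 0.17, limma adjusted p = 4.72e-05; of overexpression 0.51, SE 0.17, adjusted p = 0.259). The added poly-A controls had a mean log2 signal of 9.45 to 9.62 on the 3 replicate 1 arrays and 10.6 to 10.9 on the other arrays. The HEK293 markers NEFM, NEFL, VIM, KRT8, KRT18 and CDH2 were all above the filter. Of these markers and KAT8, 7 genes, 2 passed as lower after knockdown than in wild type (8.89% of all tested probe sets did). In knockdown against overexpression 3 of the 7 passed as lower (8.76% of all tested probe sets did). Of 10 markers of blood, liver, fibroblast, endothelial and muscle cells on the array, 4 were above it, and PTPRC, CD3E, ALB, CDH5, DES and MYH7 were not. Their summed signal was 3019 to 3849 in wild type, 3316 to 3907 after overexpression and 2432 to 2786 after knockdown, where COL3A1, a fibroblast collagen, was lower (-1.01, limma adjusted p = 0.046). The part of these markers in the knockdown results was not tested.

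**Figure D1:**
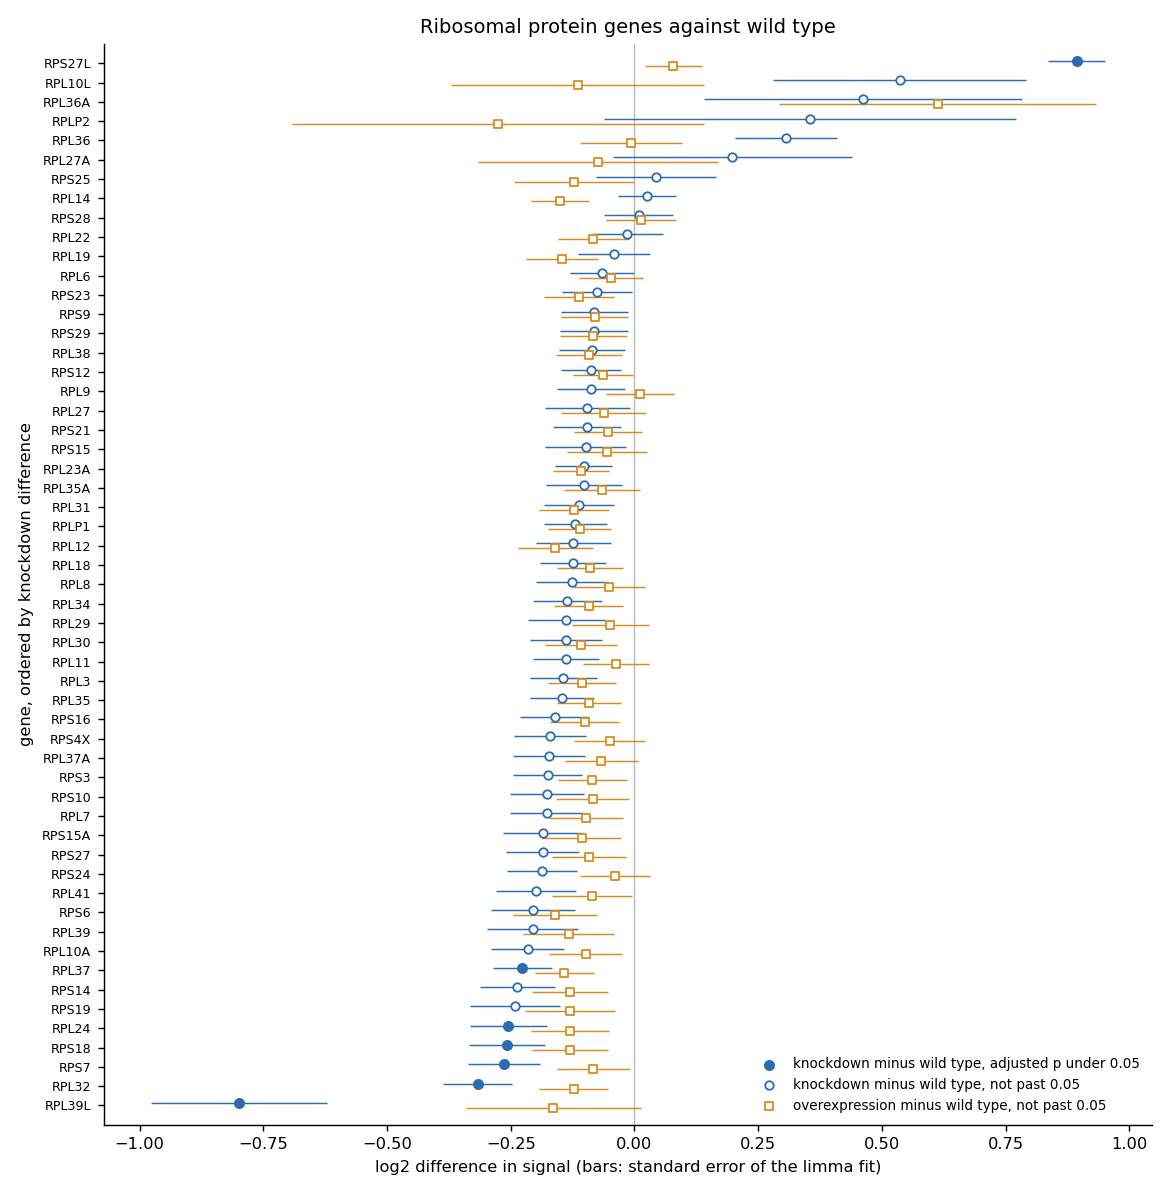
Log2 difference in signal from wild type for the 55 tested ribosomal protein genes, 1 row per gene, ordered by the knockdown difference (blue circles, filled where the limma adjusted p is under 0.05; orange squares, overexpression; bars, standard error; 3 arrays a group). RPS27L at 0.89 and RPL39L at -0.80 lie at the ends, and most of the genes between them lie slightly below 0 in both comparisons.

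MOF knockdown against wild type asks which of these messenger RNAs differed when the acetyltransferase was depleted. RPS27L rose 1.86-fold, RPL39L fell 1.74-fold, and RPL32, RPS7, RPS18, RPL24 and RPL37 fell by smaller amounts, of 1.17 to 1.25-fold. These 7 of 55 genes (12.7%) passed an adjusted p of 0.05 in the limma fit, where 15.7% of all tested probe sets did, so the family held no larger share of calls than the array. The split was 1 higher, where the array had 6.82%, and 6 lower, where the array had 8.89%. The 3 arrays of each group did not overlap in 15 of 55 genes, against 35.2% of all tested probe sets: 12 genes lay lower, as did 18.3% of all tested probe sets, and 3 (RPS27L, RPL36 and RPL36A) higher, as did 16.9%.

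RPS27L is a paralog of RPS27 and a known target of p53, and its protein binds MDM2. Its signals were 25101, 26295 and 25539 in wild type, 26941, 26619 and 27698 after overexpression and 47127, 47851 and 47908 after knockdown. The knockdown arrays lay far above the 6 others and close together. The means were 25645 ± 604 in wild type, 27086 ± 554 after overexpression and 47629 ± 436 after knockdown (SD, n = 3 each). The log2 difference of knockdown was 0.89 from wild type (SE 0.06, limma adjusted p = 4.72e-05) and 0.81 from overexpression (SE 0.06, limma adjusted p = 4.26e-05). The call held in all 18 alternatives of each of those comparisons, with log2 differences of 0.88 to 0.95 from wild type and 0.73 to 0.84 from overexpression. Overexpression and wild type arrays did not overlap, but their difference of 0.08 (SE 0.06) had a limma adjusted p of 0.625. A second probe set of RPS27L, 222487_s_at, had signals of 1363, 1250 and 874.3 in wild type against 2397, 2411 and 3212 after knockdown (1.21, SE 0.26, limma adjusted p = 0.0113). The third, 238935_at, had a knockdown difference of 0.73 (SE 0.27) that missed the threshold (limma adjusted p = 0.0895).

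RPS27, the gene that RPS27L is related to, did not pass in any comparison. Its signals were 107865, 128642 and 129639 in wild type, 115268, 117267 and 109842 after overexpression and 110617, 108621 and 101780 after knockdown. The lowest wild type array overlapped both treated groups. The knockdown difference was -0.19 (SE 0.07, limma adjusted p = 0.116).

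RPL39L, a paralog of RPL39 known from the testis, had signals of 2873, 3521 and 3737 in wild type, 2342, 3552 and 3233 after overexpression and 1585, 2149 and 2105 after knockdown. All 3 knockdown arrays lay below the 6 others. Knockdown differed from wild type by -0.80 (SE 0.18, limma adjusted p = 0.0127), and without wild type replicate 2 that p was 0.0516. Overexpression differed from wild type by -0.16 (SE 0.18, limma adjusted p = 0.766). RPL39, a small protein at the exit of the peptide tunnel, had signals of 147845, 173725 and 180802 in wild type, 147544, 156459 and 152514 after overexpression and 160953, 147485 and 127599 after knockdown. The groups of RPL39 overlapped, with a knockdown difference of -0.21 (SE 0.09, limma adjusted p = 0.155).

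RPL10L, a paralog of RPL10 also known from the testis, was dim, with signals of 339.6 to 474.4 in wild type, 255.4 to 475.3 after overexpression and 468.5 to 633.6 after knockdown. Its knockdown difference of 0.54 (SE 0.25) did not pass (limma adjusted p = 0.182). So of the 3 tested paralogs among these genes, 1 was higher after knockdown, 1 was lower and 1 did not pass. On the whole array 15.7% of tested probe sets passed (6.82% higher, 8.89% lower), and so small a count is not read as a property of paralogs.

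**Figure D2:**
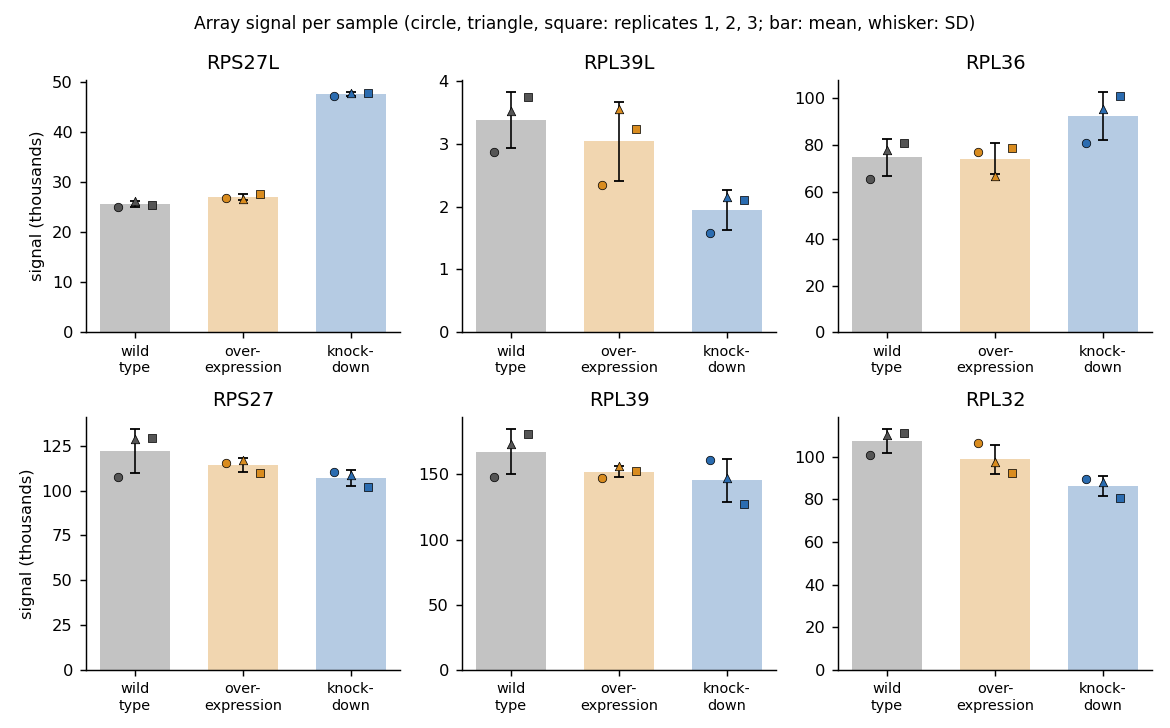
Signal, divided by 1000, of 6 ribosomal protein genes on each array (circle, triangle and square for replicates 1, 2 and 3), with group means as bars and the SD as whiskers, n = 3. The knockdown mean of RPS27L is 47629 in signal against 25645 in wild type, its arrays lie above all others, those of RPL39L lie below both other groups, and the parent genes RPS27 and RPL39 overlap between groups.

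The 5 bright genes that fell had small differences. RPL32, a large subunit protein, had signals of 101063, 110333 and 111070 in wild type, 106378, 97447 and 92602 after overexpression and 89802, 88177 and 80897 after knockdown. The knockdown arrays lay below all others (-0.32 from wild type, SE 0.07, limma adjusted p = 0.0124). RPS7, a small subunit protein that binds MDM2, had signals of 109350, 119434 and 128406 in wild type, 113954, 119016 and 104105 after overexpression and 102638, 99950 and 94548 after knockdown. Its knockdown arrays also lay below all others (-0.26, SE 0.07, limma adjusted p = 0.0329), and its second probe set gave -0.27 (limma adjusted p = 0.0438). RPS18, of the head of the small subunit, differed by -0.26 (SE 0.08, limma adjusted p = 0.0428). RPL24, at the bridge between the subunits, had the same size of difference at -0.25 (SE 0.08, limma adjusted p = 0.049). RPL37, a zinc-binding large subunit protein, differed by -0.23 (SE 0.06, limma adjusted p = 0.0268).

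None of these 5 calls stood under every alternative. All 5 were lost without the trend in the fit (limma adjusted p = 0.0678 to 0.154) and without the filter (0.0501 to 0.155). With arrays centred on the median tested probe set, those of RPS7, RPS18 and RPL24 were lost. RPS18, RPL24 and RPL37 also lost theirs without certain single arrays (limma adjusted p up to 0.147, 0.17 and 0.0934). The call of RPL32 was lost without wild type replicate 2 (limma adjusted p = 0.0556) and without knockdown replicate 3 (0.0506), and that of RPS7 without any 1 of 4 arrays (wild type 2 and 3, knockdown 2 and 3), with adjusted p up to 0.108. RPS18, RPL24 and RPL37 lost theirs under quantile normalization, which gives every array the same distribution of signals, with log2 differences of -0.14, -0.08 and -0.10. The second probe set of RPL24 stood at -0.13 (limma adjusted p = 0.212), and the other 3 of RPL37 at 0.04, -0.34 and -0.12, none of them past the threshold.

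RPL36, a large subunit protein, was the bright gene with the highest knockdown difference. Its signals were 65480, 77875 and 80654 in wild type, 77013, 66875 and 78760 after overexpression and 80884, 95315 and 100929 after knockdown. Knockdown replicate 1 lay barely above the highest wild type array. The difference of 0.31 (SE 0.10) missed the threshold (limma adjusted p = 0.0666) and passed with the replicate number as a block (adjusted p = 0.0133). RPS14, a small subunit protein, likewise went from a limma adjusted p of 0.0574 to 0.0346 with that block, at a difference of -0.24.

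Grouped by role, few of these genes passed. Of the stalk proteins that recruit elongation factors, RPLP1 differed by -0.12 (limma adjusted p = 0.231) and RPLP2, whose single-symbol probe set was dim (signals 129.2 to 604), by 0.36 (limma adjusted p = 0.609). Of 6 proteins known to bind MDM2, RPS27L rose and RPS7 fell, while RPL11 at -0.14, RPS3 at -0.18, RPS14 and RPS27 did not pass. Of 12 genes known for mutations in Diamond-Blackfan anaemia, a failure of red cell formation, RPS7 passed. Of all tested probe sets 15.7% passed, so neither count is read as a property of its list. RPS19, the gene first tied to that disease, had signals of 157072, 174846 and 181682 in wild type and 161708, 149978 and 124682 after knockdown, and its difference of -0.24 (SE 0.09) did not pass (limma adjusted p = 0.0968). Large and small subunit genes in the brightest hundredth had median knockdown differences of -0.13 (29 genes) and -0.17 (20 genes).

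Other probe sets of the same genes gave a mixed picture. The 29 genes with more than 1 tested probe set had 49 further ones, and after knockdown 29 of these 49 had the sign of the brightest. Of the 49, 6 passed, where 15.7% of all tested probe sets did: those of RPS7 and RPS27L, and single probe sets of RPL31, RPL37A, RPS15A and RPS29 whose brightest probe set did not pass. RPL31 probe set 200962_at had signals of 20377, 19024 and 20054 in wild type, 17390, 16225 and 16633 after overexpression and 13477, 12795 and 13082 after knockdown. The 3 groups formed separate bands there (knockdown -0.59 from wild type, SE 0.07, limma adjusted p = 0.000426), whereas the brightest probe set of RPL31 gave -0.11 (SE 0.07, adjusted p = 0.315). RPS29 probe set 238824_at had signals of 643.0, 755.3 and 846.4 in wild type, 492.7, 543.9 and 516.3 after overexpression and 1063, 1105 and 1105 after knockdown. Its knockdown arrays lay above all others (0.55 from wild type, limma adjusted p = 0.0285), while the brightest probe set of RPS29 gave -0.08 (adjusted p = 0.457). Which transcripts each of these probe sets reads was not tested.

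MOF overexpression against wild type left no tested gene of the family past the threshold. Of the 55 genes 0 passed in the limma fit, where 0.476% of all tested probe sets did (0.319% as rises, 0.157% as falls), and 2 (RPL14 and RPL37) had an unadjusted p under 0.05, or 3.64% of the genes against 12.3% of all tested probe sets. The groups did not overlap in 3 genes, against 17.6% of all tested probe sets: RPL14 and RPL37 lay lower, as did 7.67% of all tested probe sets, and RPS27L higher, as did 9.92%. RPL14, a large subunit protein, had signals of 69615, 68100 and 72466 in wild type, 64969, 63219 and 61099 after overexpression and 74431, 71605 and 68022 after knockdown. Overexpression stood lowest (-0.15 from wild type, SE 0.06, limma adjusted p = 0.325). RPL12, of the base of the stalk, had a difference of -0.16 (SE 0.08, adjusted p = 0.432), and RPL36A the highest, 0.61 (SE 0.32, adjusted p = 0.478), with a dim probe set at 224.3 to 604.4.

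RPS6, the small subunit protein that mTOR's S6 kinases phosphorylate, had 4 probe sets, and 1 of them set the overexpression arrays apart. Probe set 211690_at had signals of 11.1, 65.5 and 48.3 in wild type, 5262, 9827 and 5464 after overexpression and 30.6, 10.3 and 23.3 after knockdown. The 6 lower signals all lay under the filter's signal of 188 and detection calls were not used here, so a ratio to those signals is not read as a fold change. With signals under 188 set to 188, the lowest overexpression signal was 27.95 times the highest elsewhere, the highest such ratio of the 54613 probe sets that are not controls. The next for overexpression, of FOS, stood at 4.29. The mean signal of the probe set fell below the filter, and in the limma fit without that filter overexpression differed from wild type (adjusted p = 0.000327); the fitted size rests on those dim signals and is not given. The other 3 probe sets of RPS6 differed by -0.04, -0.16 and -0.13 after overexpression, none past the threshold. This probe set was singled out after its values were seen, and which RNA it measured in the overexpression arrays was not tested.

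**Figure D3:**
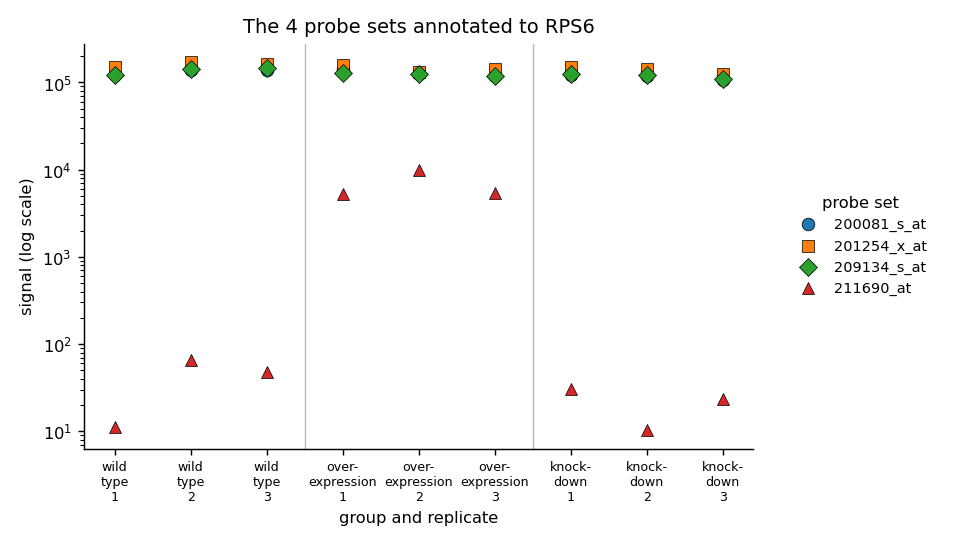
Signal (log scale) of the 4 probe sets annotated to RPS6 on each of the 9 arrays. Probe set 211690_at (triangles) lies at 5262 to 9827 on the 3 overexpression arrays and at 65.5 or less on the other 6, while the other 3 probe sets stay within the brightest range in every group.

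Knockdown against overexpression, both of them transfected, shares no untreated arrays. RPS27L (0.81) and RPL39L (-0.64, SE 0.18, limma adjusted p = 0.0354) passed, 2 of 55 genes where 14.5% of all tested probe sets did (5.75% higher and 8.76% lower). In 8 genes the arrays of 1 group lay wholly above those of the other, against 33.7% of all tested probe sets, with RPL32, RPL37, RPL39L, RPS24 and RPS7 lower after knockdown (18.7% of all tested probe sets) and RPL14, RPL36 and RPS27L higher (14.9%). With the replicate number as a block 5 genes passed, where 26.9% of all tested probe sets did: RPL10L, RPL14 and RPL36 joined RPS27L and RPL39L. The call of RPL39L was lost in 7 alternatives, with adjusted p up to 0.12. Without overexpression replicate 2 or 3, or without knockdown replicate 2 or 3, RPS27L alone passed. The knockdown and overexpression comparisons above share the wild type arrays, so they are not independent of each other.

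As a family the genes lay slightly below wild type in both treated groups. Of 55 genes, 51 had a difference below 0 after overexpression and 46 after knockdown, against 47.6% and 49.0% of all tested probe sets. In the brightest hundredth, 47 and 45 of the 49 ribosomal genes were below 0. So were 142 and 112 of the 163 probe sets there that list no ribosomal protein gene. The median difference was -0.09 after overexpression and -0.13 after knockdown, beside 0.01 for all tested probe sets in each. Knockdown stood below overexpression by a median of -0.04.

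Bright probe sets of other genes were shifted as well. With probe sets that list a ribosomal protein gene left out, the median difference after overexpression went from 0.10 in the dimmest of 10 bins of tested probe sets to -0.09 in the 163 of the brightest hundredth. Those 163 were not as bright as the 49 ribosomal genes, whose median log2 signal lay 0.20 to 0.35 above theirs on the 9 arrays. After knockdown it went from 0.10 to -0.07. The 49 bright ribosomal genes stood at -0.09 after overexpression, near those 163, and at -0.14 after knockdown, below them. Quantile normalization moved the median of the 55 genes to -0.01 in each comparison with wild type. It gives every array the same bright end, and ribosomal probe sets make up 40.5% of the brightest hundredth. So it also takes out much of any shift that the family shares, and that median does not tell scaling from such a shift. With each array centred on those 163, chosen after seeing the data, the medians were -0.03 after overexpression and -0.08 after knockdown.

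**Figure D4:**
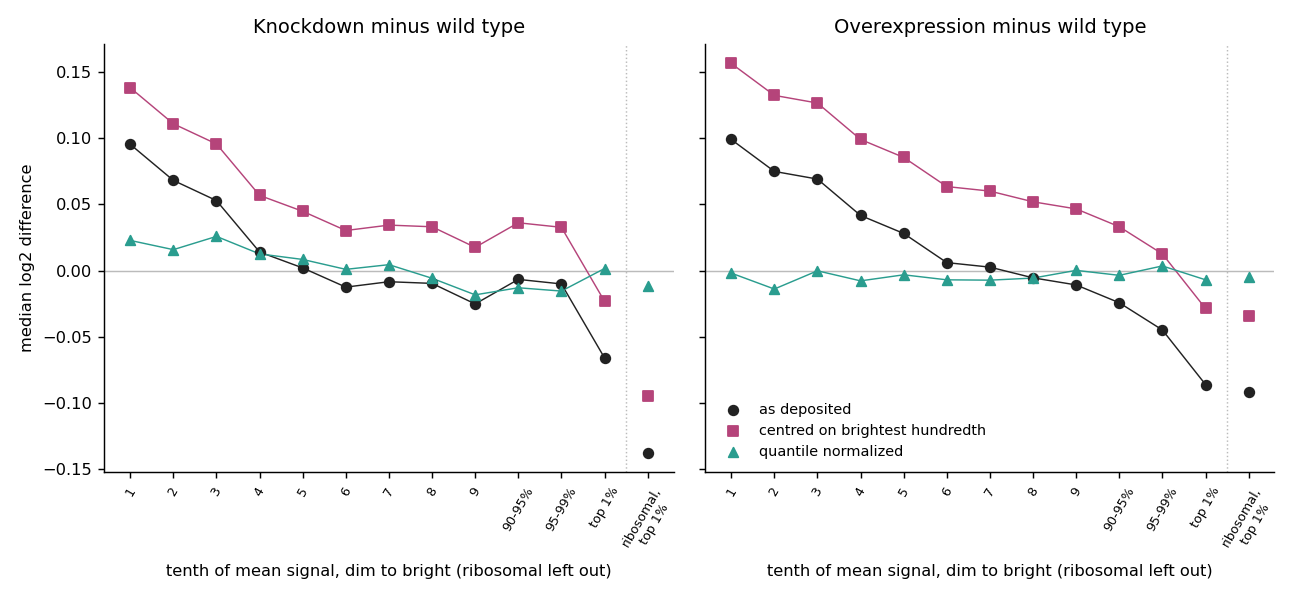
Median log2 difference from wild type in 10 bins of mean signal, with the brightest bin split in 3 and ribosomal probe sets left out, and for the 49 ribosomal protein genes of the brightest hundredth (rightmost), under 3 scalings of the arrays. As deposited, the medians fall from about 0.10 at the dim end to below 0 at the bright end in both panels, and after quantile normalization they lie near 0.

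Single arrays stood apart in these bright genes. The bright ribosomal genes stood highest on wild type replicate 3, by a median of 0.15 above their own mean, and this was the highest array for 33 of the 49. They stood lowest on knockdown replicate 3, at -0.15, the lowest array for 34 of the 49. The 163 others of the brightest hundredth stood at 0.12 and -0.12 on the same arrays. The median of the ribosomal genes less that of the others lay at 0.01, 0.04 and 0.03 on the wild type arrays, at 0.03, 0.01 and 0.01 on the overexpression arrays and at -0.04, -0.05 and -0.03 on the knockdown arrays. All 3 knockdown arrays were thus below all 6 others by this measure, which was chosen after seeing the data and sets the ribosomal genes against probe sets that are less bright. The 3' less 5' log2 signal of ACTB, a measure of how intact the RNA was, stood at 0.48 to 0.51 in wild type, 0.23 to 0.46 after overexpression and 0.27 to 0.39 after knockdown. The same measure of GAPDH stood at -0.01 to 0.05, -0.03 to 0.15 and -0.01 to 0.15, so its groups overlapped. The part of these measures in the family's shift was not tested.

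**Figure D5:**
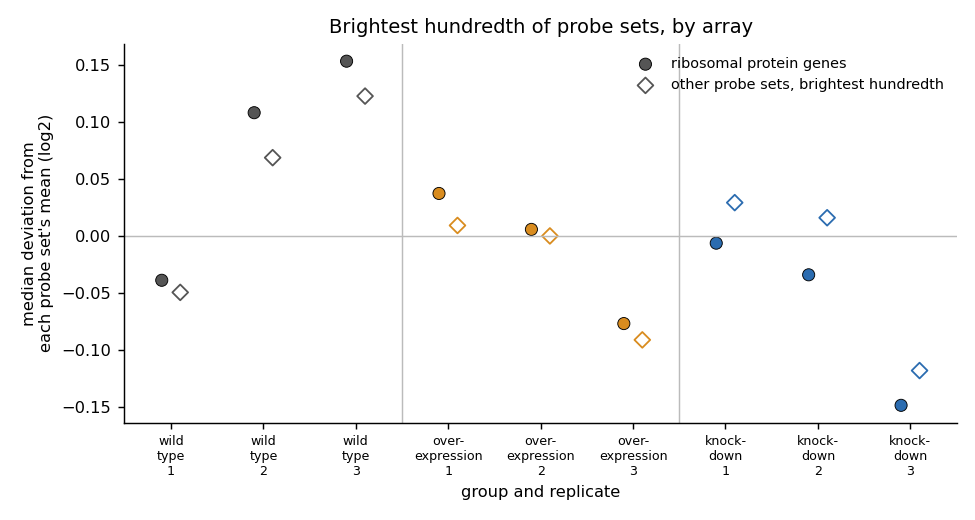
Median deviation from the mean over the 9 arrays (log2) of the 49 bright ribosomal protein genes (filled circles) and of the 163 other probe sets of the brightest hundredth (open diamonds), by array. Both sets are highest on wild type replicate 3 and lowest on knockdown replicate 3, and on the knockdown arrays alone the circles lie below the diamonds.

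The scaling and the choice of arrays also set how many genes passed after knockdown. The 7 calls (1 higher, 6 lower) became 5 (2 higher, 3 lower) under quantile normalization, where 16% of all tested probe sets passed, and 4 (1 higher, 3 lower) with arrays centred on the median tested probe set, where 15.7% did. In replicates 2 and 3 alone, chosen after seeing the data, 25 of 55 genes passed, 23 of them lower, where 19.1% of all tested probe sets did. Without wild type replicate 1, which stood lowest of its group, 14 passed (13.4% of all tested probe sets), and without wild type replicate 2 RPS27L alone did (8.1%).

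Of 5 tested ribosomal genes whose symbols fall outside the rule, 2 passed as lower after knockdown and 0 as higher. On the whole array 8.89% of tested probe sets passed as lower and 15.7% in either direction, and so small a count is not read as a property of paralogs. RPL22L1, a paralog of RPL22, had signals of 34897, 36693 and 40364 in wild type, 29475, 28300 and 31754 after overexpression and 16567, 18321 and 18755 after knockdown. The 3 groups formed separate bands (knockdown -1.06 from wild type, SE 0.08, limma adjusted p = 0.000107; overexpression -0.32, SE 0.08, adjusted p = 0.132). RPL26L1, a paralog of RPL26, had signals of 26712, 23909 and 23839 in wild type, 24459, 22837 and 23501 after overexpression and 15245, 15736 and 15476 after knockdown. Its knockdown arrays lay below all others (-0.68 from wild type, SE 0.07, limma adjusted p = 0.000252). RPL22 itself differed by -0.01 after knockdown (limma adjusted p = 0.916). The other 3 tested genes of that list, FAU, RPL36AL and RPL7L1, did not pass in any comparison in the main fit. With the replicate block RPL36AL was higher after knockdown than after overexpression (limma adjusted p = 0.0208, against 0.0763 without). In knockdown against wild type the lowest limma adjusted p over all alternatives was 0.0469 for FAU and 0.0451 for RPL36AL, neither of them with that block.

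Genes that make and regulate ribosomes were called in both directions after knockdown, in shares to be read against the 15.7% of all tested probe sets that passed (6.82% higher, 8.89% lower). Of 17 tested TOP messenger RNAs that encode no ribosomal protein, the initiation factor subunits EIF3F (-0.49, SE 0.06, limma adjusted p = 0.000704) and EIF3K (-0.36) fell and the splicing regulator HNRNPA1 (0.56) rose, with a list median of -0.05. Of 41 genes of ribosomal RNA synthesis and processing, 4 rose, including the RNA polymerase I factor UBTF (0.67) and the box C/D protein NOP58 (0.37), and 3 fell, among them UTP6 (-0.51). Of 25 genes of subunit assembly and export, AATF (-0.55) and BCCIP (-0.41) fell and none rose. Of 16 genes of the mTOR, LARP and MYC group, the mTOR complex subunit MLST8 rose (0.62) and MYC, a transcription factor that drives ribosome production, fell (-0.68, SE 0.10, limma adjusted p = 0.00143). With the replicate number as a block, where 28% of all tested probe sets passed, 2 TOP messenger RNAs rose and 3 fell, 8 genes of ribosomal RNA rose and 5 fell, and 2 of assembly rose and 5 fell. The knockdown calls of RPL22L1, RPL26L1, EIF3F, HNRNPA1, NOP58, AATF and MYC held in all 19 alternatives run on these lists, while UBTF, UTP6, BCCIP, EIF3K and MLST8 lost theirs in 1 to 9 of them.

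In the p53 branch, 2 of 4 tested genes passed after knockdown, both higher, where 15.7% of all tested probe sets passed. They were the cell cycle inhibitors CDKN1A (0.40, limma adjusted p = 0.0176) and CDKN2A (0.33, limma adjusted p = 0.0169). MDM2 at 0.33 (SE 0.10) lay just outside the threshold (limma adjusted p = 0.0506), and inside it with the replicate block (0.00738). In knockdown against overexpression none of the 4 passed, where 14.5% of all tested probe sets did. With the replicate block 1 was higher and 1 lower in that comparison, where 26.9% of all tested probe sets passed. After overexpression CDKN1A rose as well (0.60, SE 0.10, limma adjusted p = 0.0202), and the ribosomal RNA processing factor RRP1 (0.69, limma adjusted p = 0.0403) was the other gene of these lists called in that fit, where 0.476% of all tested probe sets were. The overexpression call of CDKN1A was lost in 5 of the 19 alternatives (adjusted p up to 0.132) and that of RRP1 in 13 (up to 0.206). RPS27L, which is a known target of p53 as CDKN1A is, was called after knockdown, and its difference after overexpression did not pass.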

How the data were processed

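Total RNA of 9 HEK293 samples was measured on 9 oligonucleotide arrays, 3 per group, grouped by title. Each probe set has 1 deposited intensity on a linear scale, which the authors computed with MAS5, as named in the submitters' processing notes; no source used here gives its version or settings. Detection calls and saturation were not used here. The number of arrays limits the precision.

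Signals were transformed to log2(signal + 1), so fold changes of dim probe sets are understated. Leaving out 62 control probe sets, the 27307 of 54675 probe sets whose mean log2 signal reached the median (7.56) were tested in 1 fit over 9 arrays with limma 3.58.1 in R 4.3.3 (lmFit, eBayes with trend, two-sided), with Benjamini-Hochberg adjustment over all of them and a threshold of 0.05. Genes were named from the platform's annotation, of which 41097 probe sets had 1 symbol, 1801 several and 11777 none, with 41043 matched by Entrez ID to RefSeq (GRCh38.p14), the source of the sequences (48 of 56 genes matched). Genes are named that passed in any comparison, that had the 4 highest or lowest differences in one, or that belong to the stalk, paralog or MDM2-binding lists, with RPS6 and RPS19; RPL14, RPL39, RPL22, RPL27A, RPL31, RPS29, RPL37A, RPS15A, RPS24, RPL10A and further probe sets were chosen after their values were seen. Of the other lists, genes are named that passed, up to 4 of smallest p in each comparison; UBTF, FAU, RPL36AL, RPL7L1, MDM2, EIF6, MRTO4 and the calls added by the replicate block were chosen after their values were seen. The genes and all lists were chosen with earlier results of these data known. The fit was tested on simulated data.

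Alternatives changed the scaling, pseudocount, filter, trend, replicate term, probe set per gene or arrays used. Deviations of arrays with the same replicate number correlated at 0.352 to 0.447 for replicate 1, 0.144 to 0.237 for replicate 2 and 0.083 to 0.137 for replicate 3. Every knockdown pair was above 0.1, and the pair at 0.083 was wild type with overexpression. Deviations cancel within a group, so replicate 1 standing apart would by itself give positive values for replicates 2 and 3. Arrays of different replicate numbers were not correlated, so these values do not settle whether the arrays are paired. The main fit has no replicate term, and the replicate block is an alternative to it. Figures were drawn with matplotlib 3.10.9.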

Additional observations from a re-analysis of the deposited data

Results flagged for a closer look

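RPS6 probe set 211690_at was left out of the main test by the filter on mean signal, yet it carried a signal on the overexpression arrays alone. Its lowest overexpression signal (5262) was 80.3 times its highest signal elsewhere (65.5). That is a ratio of listed signals, the lower of which lie under the filter; with signals under the filter's 188 set to 188 it was 27.95, the highest of 54613 probe sets for any group. Of the 13 ribosomal probe sets with 1 symbol below the filter, the 12 others reached at most 422.1 and none passed an adjusted p of 0.05 in the limma fit without the filter. The cause was not tested.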

How the results depend on the processing

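For the named ribosomal protein genes, over all alternatives, 1047 values kept their side of the threshold, 46 lost a call, 38 gained one and 0 reversed. For knockdown against wild type (7 genes past the threshold), 4 passed with arrays centred on the median tested probe set, 2 without the trend, 2 without the filter, and, as alternatives added after seeing the data, 11 with arrays centred on the brightest hundredth and 25 in replicates 2 and 3 alone. With the replicate block (28% of all tested probe sets), or a term for replicate 1 (28.2%), 10 passed. Leaving out 1 array gave 1 to 14. For knockdown against overexpression (2 genes), 5 passed under quantile normalization (1 higher, 4 lower), with the replicate block, with the mean over a gene's probe sets and with the brightest hundredth as centre, 4 centred on the brightest of 10 bins (1 higher, 3 lower) or in replicates 2 and 3 alone, 6 with a term for replicate 1, 3 centred on the median (2 higher, 1 lower), 3 without _x_at probe sets, and 1 without the trend or the filter. Leaving out 1 array gave 1 to 2. For overexpression against wild type (0 genes), 1 passed with the mean over probe sets, RPS6, through probe set 211690_at; the other alternatives, the replicate block among them, gave 0. Family medians moved to -0.0075 (knockdown) and -0.0061 (overexpression) under quantile normalization, and to -0.17 (overexpression) in replicates 2 and 3 alone. Leaving out 1 array, they ran from -0.182 to -0.089 for knockdown, from -0.153 to -0.056 for overexpression and from -0.082 to -0.008 between the treated groups. The cause of these shifts was not tested. Among the 55 genes the replicate block changed no call beyond those given beside the results and that of RPL10A, which it added. In the other lists it added overexpression calls of RPL22L1 (limma adjusted p = 0.0125), HNRNPA1 (0.039), EIF6 (0.0378), MRTO4 (0.0374) and MYC (0.0204). With that block 3.74% of all tested probe sets passed in that comparison. Whether overexpression and wild type arrays are paired was not settled.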
